A study of Mus musculus with 6 samples.

Results

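Signalling by transforming growth factor beta (TGF-beta), bone morphogenetic proteins (BMPs) and activins was examined through 45 genes among the 12163 listed in the deposited expression table. They are the protein-coding genes whose symbols match a fixed pattern for the ligands, receptors, co-receptors, secreted antagonists, Smads, Smurf ubiquitin ligases and nuclear corepressors of this superfamily. The pattern finds 72 protein-coding genes in the GENCODE M21 annotation (GRCm38), so 27 of them, among them Acvr1, Acvr2a, Acvr2b, Smad2, Smad5 and Ski, are not analysed here. The mice were wild type and of the inbred strain C57BL/6, and RNA of their fat was sequenced as 3 libraries of tissue that had not been grafted and 3 libraries of fat grafts collected on day 7. Nothing in the labels used here states the depot, the graft site, the age or the sex of the mice, or whether animals were pooled. Each library held between 13027776 and 15924559 reads on listed genes, and since no label ties a library to a separate animal, p-values measure the spread between libraries, which may be technical. Members were taken by a pattern of names, not by value, though with earlier results of these data known. The deposited table holds mainly genes that differ between groups, and the pattern also takes in 2 genes of other function, Tgfb1i1 and Bmp2k.

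The superfamily works through dimeric secreted ligands that bring together type II and type I serine/threonine kinase receptors, whose type I member then phosphorylates receptor Smads. TGF-beta and activins act mainly through one set of receptor Smads and BMPs through another, both with the shared partner Smad4, while follistatins, gremlin, noggin and chordin-like proteins bind ligands outside the cell. In fat, BMP signals are known to favour the commitment and function of adipocytes, whereas TGF-beta and activin A are known to restrain adipocyte differentiation and to drive fibroblasts towards matrix production.

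The 4 start-site windows printed are those of 3 members that rose and of the member with the largest fall. The first 3 (Inhba, Tgfb2 and Fstl3) hold the letters TATAAA on either strand, and Acvr1c is the receptor gene with the largest fall. They were chosen after the values were seen. Each window runs from 250 bases before to 50 bases after a RefSeq start site (GRCm38.p6), 5′ to 3′ on the gene's strand. Capitals mark TATAAA on either strand and, in Inhba, also TTGCNNAA on the opposite strand, a motif bound by C/EBP factors.
Inhba, chr13:16011601-16011900, plus strand: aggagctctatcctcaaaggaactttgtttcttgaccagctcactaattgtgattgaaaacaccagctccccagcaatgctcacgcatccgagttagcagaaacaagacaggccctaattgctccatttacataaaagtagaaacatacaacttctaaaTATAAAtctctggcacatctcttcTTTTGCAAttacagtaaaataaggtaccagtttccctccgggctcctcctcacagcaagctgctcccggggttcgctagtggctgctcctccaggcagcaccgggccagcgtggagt
Tgfb2, chr1:186705940-186706239, minus strand: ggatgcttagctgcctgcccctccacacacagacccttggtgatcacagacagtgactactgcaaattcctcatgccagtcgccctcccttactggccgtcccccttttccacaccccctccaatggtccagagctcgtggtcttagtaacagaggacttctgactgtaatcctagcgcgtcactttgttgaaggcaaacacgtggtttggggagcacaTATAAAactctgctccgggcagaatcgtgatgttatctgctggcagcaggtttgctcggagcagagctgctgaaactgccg
Fstl3, chr10:79777024-79777323, plus strand: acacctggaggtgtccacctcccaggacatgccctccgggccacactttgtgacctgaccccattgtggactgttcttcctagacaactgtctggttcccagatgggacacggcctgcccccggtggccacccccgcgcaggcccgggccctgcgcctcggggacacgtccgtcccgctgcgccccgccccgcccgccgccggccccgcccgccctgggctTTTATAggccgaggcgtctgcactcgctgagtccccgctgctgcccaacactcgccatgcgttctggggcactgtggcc
Acvr1c, chr2:58357709-58358008, minus strand: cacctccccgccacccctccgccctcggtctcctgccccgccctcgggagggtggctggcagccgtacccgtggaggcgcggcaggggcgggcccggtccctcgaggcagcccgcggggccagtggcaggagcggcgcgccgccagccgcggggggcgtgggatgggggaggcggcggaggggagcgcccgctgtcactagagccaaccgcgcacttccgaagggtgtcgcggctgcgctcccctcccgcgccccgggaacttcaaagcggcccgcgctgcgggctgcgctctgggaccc
The G and C content was 47.7% for Inhba, 54.3% for Tgfb2, 70.7% for Fstl3 and 79.0% for Acvr1c, against a median of 52.7% over all 32851 windows. Windows were found for 29 of the 45 members, with a median of 67.7%, and the medians were 65.0% over the 19 windows of members called higher and 71.5% over the 8 of members called lower. Among risen members, Bmp2k (83.3%) and Acvr1b (79.7%) were above Acvr1c, so the printed windows do not stand for a difference between the directions. TATAAA stood in 4 of the 29 (13.8%), the fourth being Bmpr1b, and in 13.6% of all windows. TTGCNNAA stood in 2 of the 29 (6.9%), Inhba and Tgfbr2, and in 10.8% of all windows. The GC-rich letters GGCGCC, a Smad-binding element of BMP target genes, stood in 9 of the 29 (31.0%) and in 11.9% of all windows, with base composition not matched. TGANTCA (AP-1), TGACGTCA (cyclic AMP response element), TGATGNAA (C/EBP-ATF) and GTCTAGAC (Smad), searched on both strands, were in none of the 29 windows and in 7.81%, 1.79%, 3.97% and 0.213% of all windows.

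In the grafts, the TGF-beta ligand genes and the activin and inhibin subunit genes were higher, 6 of 6, while 5 of 9 BMP and GDF ligand genes were lower. Of the 6, Tgfb3 turned sign under 1 scaling, where Inha, the inhibin alpha subunit gene, also lost its call. Values are normalized counts, in which the reads of each library were scaled by its own size factor. Changes are log2 fold changes of grafts over fat before grafting on the scale of log2(normalized count + 1), with the standard error (SE), and "rose" or "fell" means an adjusted p under 0.05 in limma. Of the 45 members, all of which passed the low-value filter, 29 rose, 11 fell and 5 were not called, so that 64.4% were higher and 24.4% lower. Among all 10854 genes tested, 41.3% were higher, 39.2% were lower and 80.4% were called in either direction. By at least 1 on the log2 scale, 21 members rose and 9 fell, against 25.6% and 27.8% of all tested genes. The members' median log2 fold change was 0.79, against 0.28 for all tested genes. Groups did not overlap for 44 members, a state shared by 97.6% of all tested genes. With ribosomal protein genes held at no change, the median of all genes moved to -0.47, 16 members were higher and 15 lower, and backgrounds were 17.8% and 50.9%. Rises made up 72.5% of the members' calls in the first case and 51.6% in the second. Of the calls over all tested genes they made up 51.3% and 25.9%. Rescaling by median ratios, equal totals or equal upper quartiles moved the median of all genes to 0.17, 0.15 and 0.07, with no member changing sign. The 8 members that changed sign when ribosomal protein genes were fixed were Smad3, Bmp2, Tgfb3, Smad4, Acvrl1, Smad1, Tgfbr2 and Smurf1. There Grem1, Bambi, Inha, Tgfb1i1, Bmpr2, Bmp2k and Bmper kept their sign but missed the threshold. Grem1, Bmp2k, Tgfb3, Smad1 and Tgfbr2 also missed it with equal totals, and these and Smad3 and Acvrl1 with equal upper quartiles. After rescaling by median ratios Smad1 and Tgfbr2 missed it. Without stranded counting, which the sources used here do not give, reads of overlapping genes may not be told apart. This holds for Bmp4, Bmp6, Gdf5, Tgfb3, Chrd, Fstl3, Eng and Bmp2k, which overlap protein-coding genes on the opposite strand, and for Inhba, Tgfb2, Fst, Acvr1c, Acvrl1, Bmpr1a and Tgfbrap1, which overlap antisense transcripts. Members took between 0.328 and 0.341% of the listed total before grafting and between 0.514 and 0.613% in grafts.

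**Figure D1:**
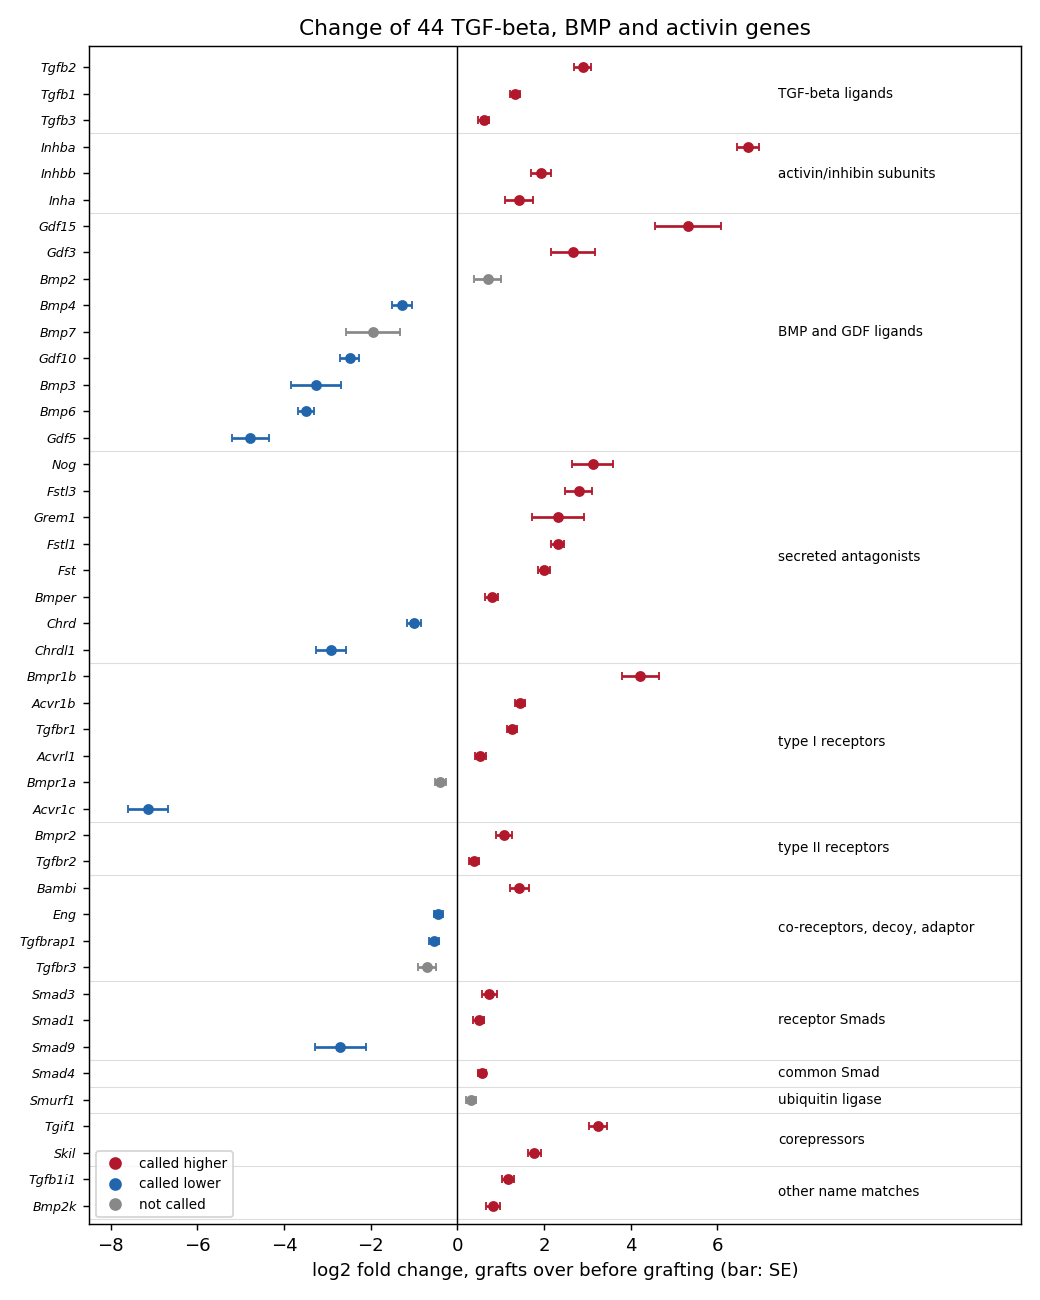
Log2 fold change of grafts over fat before grafting for 44 of the 45 members, by role, with SE bars (3 libraries per group). Red points were called higher (28), blue lower (11) and grey not called (5). Inhba at 6.71 and Acvr1c at -7.15 are the extremes, and Smad3, Bmp2, Tgfb3, Smad4, Acvrl1, Smad1, Tgfbr2 and Smurf1 change sign with ribosomal protein genes at no change.

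The cell types in the tissue changed with the groups. All 15 adipocyte markers fell, with a summed level of 505910 to 703226 normalized counts before grafting and 13022 to 37982 in grafts, the highest being graft replicate 1. Macrophage markers (9 of 12 listed, all 9 rose) summed to 22167 to 24915 and 194091 to 204973, and neutrophil markers (8 of 10 listed, all 8 rose) to 729 to 884 and 58340 to 93629. Of 11 listed fibroblast markers 9 rose and 1 fell, with sums of 134140 to 173156 and 838599 to 1382536. Of 9 listed endothelial markers 6 fell and 0 rose, with sums of 18202 to 22581 and 7616 to 10385, and Pecam1 and Cdh5 were not analysed here. Of 7 listed smooth muscle and pericyte markers 2 rose and 5 fell, with sums of 16323 to 18089 and 14021 to 14728. All 7 listed T and NK cell markers and all 5 listed B and plasma cell markers fell, with T and NK sums of 3511 to 6140 and 302.3 to 699.2 and B and plasma sums of 4826 to 10166 and 137.5 to 378.2. The 4 listed mast cell markers were not called, with sums of 1108 to 1346 and 95.4 to 741.9. No marker of the lists so far was at 0 in every library of a group. None of 8 skeletal muscle markers was listed, the 1 listed epithelial marker, Cdh1, rose, with 29.5 to 38.5 and 51.2 to 89.0 normalized counts, and the 4 listed mesothelial markers summed to 44.4 to 88.1 and 85.3 to 159.7, with Upk3b and Wt1 at 0 before grafting. In bulk tissue, a change in the number of cells of a type and a change in RNA per cell cannot be told apart, and the part of these cell types in the results below was not tested.

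All 3 TGF-beta ligand genes rose, though Tgfb3 was not called with equal totals, with equal upper quartiles or with ribosomal protein genes fixed, where its sign turned to -0.15. Tgfb1, the main isoform of immune cells and platelets, had 1440, 1222 and 1270 normalized counts before grafting and 3440, 3611 and 2861 in grafts. The log2 change was 1.33 (SE 0.12, adjusted p = 0.000108). Its groups did not overlap, a state shared by 97.6% of all tested genes. Tgfb2, an isoform with marked roles in development, had 57.2, 50.7 and 55.1 before and 328.4, 509.1 and 409.5 after, the largest change of the isoforms at 2.89 (SE 0.20, adjusted p = 2.87e-05). Tgfb3 had 279.1, 269.5 and 270.5 before and 371.6, 408.3 and 474.8 after (0.61, SE 0.13, adjusted p = 0.014). Its call was lost without replicate 3 before grafting (adjusted p = 0.0549) or graft replicate 3 (adjusted p = 0.0555). Per kilobase of gene length, Tgfb1 held 75.6, 73.3 and 73.8% of the summed isoform counts before grafting and 80.4, 77.4 and 72.9% in grafts, so these shares overlapped. The share of Tgfb2 went from 2.61, 2.65 and 2.79% to 6.68, 9.51 and 9.08%, and that of Tgfb3 from 21.8, 24.1 and 23.4% to 12.9, 13.1 and 18.03%, without overlap in either case. With 3 libraries against 3, an exact two-sided permutation test of such shares cannot give a p below 0.10, so they are described without a test.

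The activin subunit genes rose, and the balance between them changed. Inhba encodes the beta-A subunit, 2 copies of which form activin A. Inhba (chromosome 13, 16011851 to 16031621, plus strand, GRCm38) had 35.5, 25.3 and 22.6 normalized counts before grafting and 2192, 4102 and 2899 in grafts. Its mean rose 110.2-fold, from 27.8 ± 6.8 to 3065 ± 966 (SD, n = 3), a change of 6.71 (SE 0.26, adjusted p = 2.38e-06) and the largest rise of any member. Inhbb, the beta-B subunit gene, which fat is known to express, had 484, 575 and 457 before and 2666, 1942 and 1340 after (1.92, SE 0.23, adjusted p = 0.000585). Among the grafts, Inhbb was highest and Inhba lowest in replicate 1, the graft with the most adipocyte marker RNA. Per kilobase, Inhba made up 4.66, 2.85 and 3.19% of the summed Inhba and Inhbb counts before grafting and 35.4, 58.4 and 59.0% in grafts. Inha, the alpha subunit gene of the inhibins, had 15.8, 11.1 and 19.7 before and 45.2, 34.9 and 47.5 after (1.42, SE 0.33, adjusted p = 0.0182). The Inha call was lost without replicate 1 or 2 before grafting (adjusted p = 0.054 and 0.0594) and without graft replicate 1 or 3 (adjusted p = 0.0506 and 0.0645).

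Fst and Fstl3, whose products bind activins, rose as well, but less than Inhba, and so did the related gene Fstl1. Fst, the follistatin gene, had 295.8, 243.1 and 209.5 normalized counts before grafting and 928, 1013 and 1042 in grafts (log2 fold change 2.0, SE 0.14, adjusted p = 3.47e-05). Fstl3, a secreted activin and myostatin antagonist, had 20.7, 27.4 and 27.5 before and 276.2, 162.9 and 129.6 after (2.80, SE 0.31, adjusted p = 0.000371). Per kilobase, Fst counts were 0.540, 0.381 and 0.411 times the summed Inhba and Inhbb counts before grafting. In grafts the ratio was 0.209, 0.201 and 0.295, below all 3 earlier values. Fstl1, a related glycoprotein of mesenchymal cells, was the member with the highest level per kilobase in both groups, 1179 ± 87 before and 5945 ± 1166 after (SD, n = 3). Its normalized counts were 5941, 6133 and 5314 before grafting and 23487, 34946 and 29215 in grafts (2.32, SE 0.15, adjusted p = 2.15e-05).

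**Figure D2:**
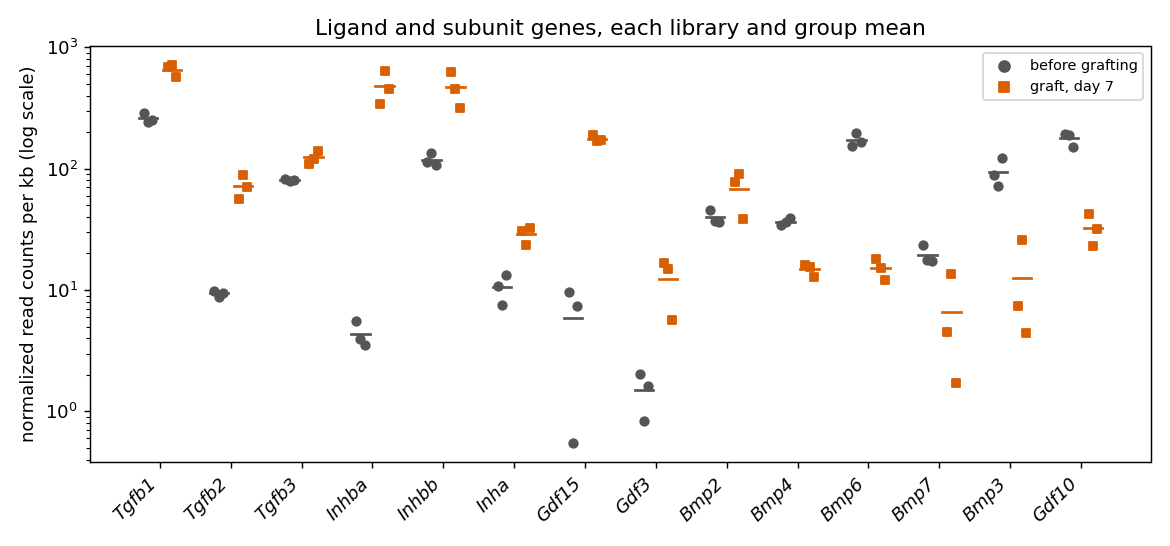
Normalized counts per kilobase of gene length (log scale) of 14 ligand and subunit genes in each library, with group means as lines. Grafts lay above the libraries before grafting for Tgfb1, Tgfb2, Tgfb3, the inhibin subunit genes, Gdf15 and Gdf3, and below them for Bmp3, Bmp4, Bmp6, Bmp7 and Gdf10, while Bmp2 overlapped. Tgfb3 and Bmp2 have a mean change of opposite sign with ribosomal protein genes at no change.

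Of the 9 BMP and GDF ligand genes 5 fell (55.6%), 2 rose and 2 were not called. Among all tested genes 39.2% fell, and 50.9% with ribosomal protein genes fixed. Under that scaling the 5 kept their call and Bmp7 was called lower too (-2.68, adjusted p = 0.0156 in limma). Gdf15 and Gdf3 stayed higher there and Bmp2 was not called. Bmp6, a BMP ligand known for control of iron balance, went from 599.5, 765.9 and 642.3 normalized counts to 70.3, 59.2 and 47.5 (log2 fold change -3.49, SE 0.19, adjusted p = 9.86e-06). Bmp3, which acts against other BMPs, had 657.7, 529.8 and 903.0 before and 54.2, 190.1 and 32.6 after (-3.27, SE 0.58, adjusted p = 0.00569), or -3.98 without graft replicate 2, the highest graft. Gdf10, also called BMP3B and known to restrain adipogenesis, had 1004, 994 and 789 before and 221.0, 120.3 and 165.2 after (-2.49, SE 0.22, adjusted p = 0.000112). Bmp4, which commits mesenchymal progenitors to the adipocyte lineage, had 76.9, 81.0 and 88.5 before and 36.2, 34.9 and 28.7 after (-1.28, SE 0.23, adjusted p = 0.00488).

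Gdf5, a ligand known from joint development, was close to the lower limit of detection. It had 21.7, 26.3 and 32.5 normalized counts before grafting and 0 reads in each graft, at least 9.05-fold lower when 3 reads in each graft are taken as the floor (adjusted p = 0.000112 in limma). This bound covers counting error only. Bmp7, a ligand linked to brown fat, had 94.7, 70.9 and 69.8 before and 18.1, 54.3 and 6.9 after, and was not called (-1.95, SE 0.63, adjusted p = 0.0849). Without graft replicate 2 it passed (-2.68, adjusted p = 0.00466), and without graft replicate 3 the value was -1.28 (adjusted p = 0.159). Bmp2, an osteogenic and adipogenic ligand, had 163.7, 131.7 and 128.9 before and 275.2, 320.0 and 136.5 after. These groups overlapped and Bmp2 was not called (0.70, SE 0.31, adjusted p = 0.281), but passed without graft replicate 3 (1.07, adjusted p = 0.00908).

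The ligand genes of this class that rose were Gdf15 and Gdf3. Gdf15, a stress-induced hormone whose receptor lies in the hindbrain, had 17.7, 1.0 and 13.8 normalized counts before grafting and 351.5, 315.2 and 316.5 in grafts. The log2 fold change was 5.32 (SE 0.76, adjusted p = 0.00162), or 4.3 without replicate 2 before grafting, which had 1 read, and 5.91 without replicate 1. Gdf3, a ligand for Acvr1c that is known from adipose tissue macrophages, had 4.9, 2.0 and 3.9 before and 40.2, 35.9 and 13.8 after (2.66, SE 0.51, adjusted p = 0.00757). Its graft values were low, and 11 reads in all were counted before grafting. Summed per kilobase, Bmp2, Bmp3, Bmp4, Bmp6 and Bmp7 together came to 346.4, 358.7 and 379.8 before grafting and 123.3, 159.9 and 69.5 in grafts. Bmp6 held 44.4, 54.7 and 43.4% of that sum before grafting and 14.6, 9.49 and 17.5% in grafts. For Bmp2 the shares were 13.3, 10.3 and 9.55% and then 62.8, 56.3 and 55.3%, so that Bmp2 became the leading BMP ligand gene of the 5 without itself being called.

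Among secreted antagonists, Chrdl1 and Chrd fell while Grem1, Nog and Bmper rose. Chrdl1, the gene of chordin-like 1, had 2159, 3381 and 2908 normalized counts before grafting and 479.1, 513.0 and 203.8 in grafts (log2 fold change -2.91, SE 0.35, adjusted p = 0.00072). Chrd, the chordin gene, had 286.0, 292.8 and 280.3 before and 117.5, 147.4 and 166.2 after (-1.0, SE 0.17, adjusted p = 0.00366). Grem1, the gene of gremlin, a BMP antagonist, had 209.0, 85.1 and 144.6 before and 254.1, 987.2 and 1287.9 after, with graft replicate 1 far below the other grafts. The Grem1 change (2.32, SE 0.60, adjusted p = 0.036) was 3.03 (adjusted p = 0.000566) without that graft and missed the threshold without any other single library. Those adjusted p were 0.059, 0.186 and 0.103 without replicates 1, 2 and 3 before grafting, and 0.139 and 0.0994 without graft replicates 2 and 3.

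Nog, the noggin gene, was low throughout, with 4.9, 1.0 and 3.0 normalized counts before grafting (9 reads in all) and 25.1, 37.8 and 29.7 in grafts (log2 fold change 3.12, SE 0.48, adjusted p = 0.00229). Bmper, a secreted BMP modulator of vessels, had 472.3, 406.2 and 420.0 before and 894.8, 750.6 and 616.3 after (0.79, SE 0.15, adjusted p = 0.0074), and 0.03 with ribosomal protein genes fixed. Of the 9 antagonist and follistatin-type members, 7 rose (77.8%) and 2 fell (22.2%), against 41.3% and 39.2% of all tested genes. Among those that rose, Grem1 and Bmper lost their call with ribosomal protein genes fixed.

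**Figure D3:**
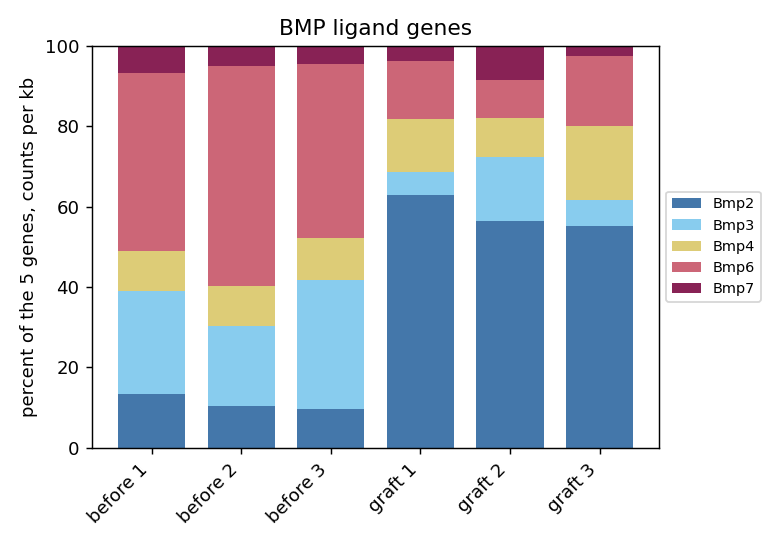
Share of each gene in the summed normalized counts per kilobase of 5 BMP ligand genes, as stacked bars for each of the 6 libraries. Bmp6 led in each library before grafting (43.4 to 54.7%) and Bmp2, which was not called itself, in each graft (55.3 to 62.8%).

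The type I receptor genes split, with Acvr1c lost and 4 others higher. Acvr1c encodes ALK7, a receptor for activin B and Gdf3 that is known to restrain lipolysis in adipocytes. Acvr1c (chromosome 2, 58267453 to 58357895, minus strand, GRCm38) had 2611, 2167 and 2241 normalized counts before grafting and 37.2, 8.7 and 10.9 in grafts. Its mean fell 123.6-fold, from 2340 ± 238 to 18.9 ± 15.8 (SD, n = 3), a log2 change of -7.15 (SE 0.46, adjusted p = 2.22e-05). Without graft replicate 1 the graft mean was 9.8 and the change -7.76 (adjusted p = 6.24e-07). That library also had the highest summed adipocyte markers of the grafts, 37982 against 17060 and 13022 normalized counts. Acvr1b, the activin A receptor ALK4, had 863.8, 701.0 and 731.8 before and 1959, 1966 and 2361 after (1.45, SE 0.12, adjusted p = 7.59e-05). Per kilobase, Acvr1b counts were 0.696, 0.680 and 0.687 times those of Acvr1c before grafting and 110.9, 473.7 and 456.4 times in grafts.

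Receptors for TGF-beta rose, Tgfbr2 by little and not under every scaling. Tgfbr1, the type I receptor ALK5, had 1000, 918 and 992 normalized counts before grafting and 2055, 2680 and 2295 in grafts (log2 fold change 1.26, SE 0.12, adjusted p = 0.000123). Tgfbr2, the type II receptor, had 5734, 5478 and 5373 before and 7144, 8026 and 6451 after (0.38, SE 0.11, adjusted p = 0.0467). Its call was lost without any one library other than graft replicate 3 (adjusted p between 0.0887 and 0.222), and the change was -0.38 with ribosomal protein genes at no change. The ratio of Tgfbr1 to Tgfbr2 per kilobase was 0.219, 0.210 and 0.232 before grafting and 0.360, 0.419 and 0.446 in grafts. Acvrl1, the endothelial type I receptor ALK1, had 1013, 1290 and 1104 before and 1612, 1766 and 1524 after (0.53, SE 0.12, adjusted p = 0.0147), and -0.22 with ribosomal protein genes fixed. Without replicate 1 or 3 before grafting or graft replicate 2 it missed the threshold (adjusted p = 0.0553, 0.0658 and 0.0672). It rose while 6 of 9 endothelial markers fell.

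BMP receptor genes also moved unequally. Bmpr1b, the type I receptor ALK6, was near the lower limit before grafting with 4.9, 5.1 and 3.0 normalized counts (13 reads in all) and had 53.2, 124.1 and 133.5 in grafts. The log2 fold change was 4.22 (SE 0.43, adjusted p = 0.00023), graft replicate 1 being the lowest graft. Bmpr1a, the broadly expressed ALK3, had 1482, 1783 and 1669 before and 1099, 1364 and 1313 after, and was not called (-0.39, SE 0.12, adjusted p = 0.0676). It passed under all 4 other scalings, from -0.50 after rescaling by median ratios to -1.14 with ribosomal protein genes at no change. Per kilobase in grafts, Bmpr1a at 198 ± 22 was still far above Bmpr1b at 17.4 ± 7.4 (SD, n = 3). Bmpr2, the BMP type II receptor, had 2230, 2502 and 2462 before and 3646, 5809 and 6117 after (1.08, SE 0.19, adjusted p = 0.00471), and 0.32 (adjusted p = 1) with ribosomal protein genes fixed.

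**Figure D4:**
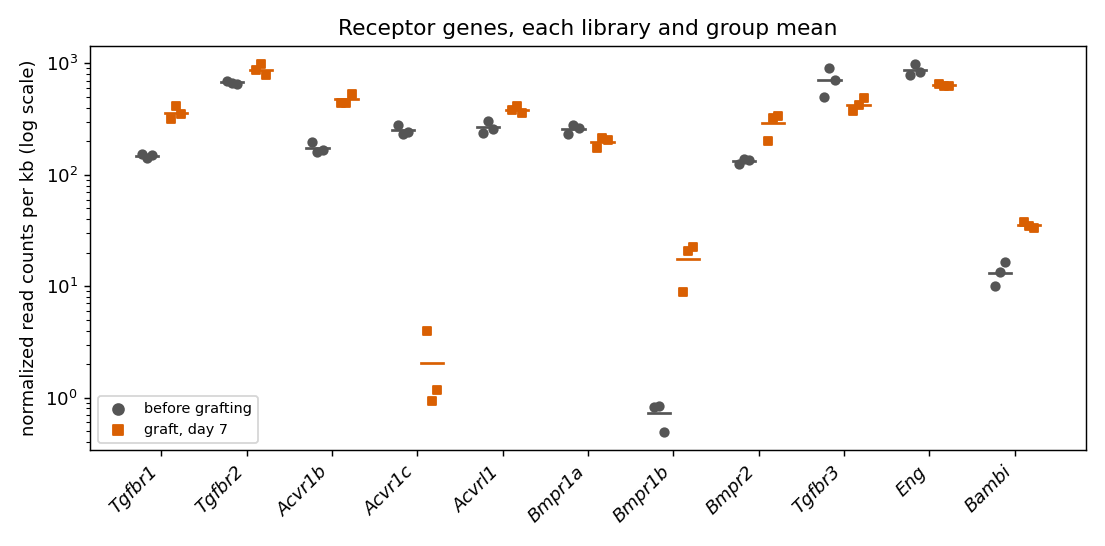
Normalized counts per kilobase of gene length (log scale) of 11 receptor and co-receptor genes in each library, with group means as lines. Acvr1c drops below every other receptor gene in grafts and Bmpr1b rises from under 1 to between 8.9 and 22.4, while Tgfbr2 and Acvrl1 have a mean change of opposite sign with ribosomal protein genes at no change.

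Co-receptors and modulators at the membrane showed smaller differences. Tgfbr3, betaglycan, which presents Tgfb2 and inhibin, had 3296, 5949 and 4674 normalized counts before grafting and 2432, 2746 and 3176 in grafts (log2 fold change -0.70, SE 0.21, adjusted p = 0.0595). It was not called, but passed without replicate 1 before grafting (-0.93, adjusted p = 0.00767), without a low-value filter (adjusted p = 0.0489), with a replicate block (adjusted p = 0.0321) and under the 4 other scalings (adjusted p between 0.00275 and 0.0291). Eng, endoglin, a co-receptor of endothelium and activated macrophages, had 3152, 3963 and 3395 before and 2640, 2544 and 2524 after (-0.44, SE 0.11, adjusted p = 0.0225). Its call was lost without replicate 2 or 3 before grafting and without graft replicate 2 or 3 (adjusted p = 0.0523, 0.0655, 0.0873 and 0.0779). Bambi, a decoy receptor without a kinase domain, had 50.3, 67.9 and 82.6 before and 191.8, 175.5 and 168.2 after (1.43, SE 0.22, adjusted p = 0.00247). Tgfbrap1, an adaptor protein, had 1267, 1342 and 1240 before and 961, 905 and 786 after (-0.54, SE 0.11, adjusted p = 0.00777).

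Inside the cell, 3 of the 4 listed Smad genes rose by less than 1 on the log2 scale, with a change of sign when ribosomal protein genes were fixed, and Smad9 fell. Smad4, the partner shared by all receptor Smads, had 1305, 1284 and 1250 normalized counts before grafting and 1741, 1957 and 2005 in grafts (log2 fold change 0.57, SE 0.09, adjusted p = 0.00295). Smad3, which carries TGF-beta and activin signals, had 689.2, 553.1 and 498.7 before and 779.4, 1052.2 and 1082.2 after (0.74, SE 0.17, adjusted p = 0.0176). Smad1, which carries BMP signals, had 683.3, 635.2 and 690.5 before and 1132.9, 898.0 and 813.1 after (0.49, SE 0.13, adjusted p = 0.0437). With ribosomal protein genes at no change these became -0.19 for Smad4, -0.01 for Smad3 and -0.27 for Smad1, none of them called. The Smad3 call was lost without replicate 2 or 3 of either group (adjusted p between 0.0639 and 0.0828). That of Smad1 was lost without any 1 library other than graft replicate 3 (adjusted p between 0.0913 and 0.133). The Smad1 call was also lost under all 4 other scalings. Smad9, a further BMP receptor Smad, was low, with 27.6, 36.5 and 21.6 before and 8.0, 1.0 and 4.0 after (-2.70, SE 0.58, adjusted p = 0.0133). It missed the threshold without replicate 1 or 2 before grafting (adjusted p = 0.0546 and 0.0631), and without graft replicate 2 the change was -2.11. Smurf1, a ubiquitin ligase that targets Smads and receptors, was not called (0.32, SE 0.11, adjusted p = 0.108), with means of 1162 ± 134 and 1449 ± 82 (SD, n = 3). With ribosomal protein genes at no change it was lower, at -0.43 (adjusted p = 0.0418).

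Both listed corepressor genes rose. Tgif1, a homeobox repressor of Smad-dependent transcription, had 268.2, 173.2 and 227.2 normalized counts before grafting and 1593, 2453 and 2326 in grafts (log2 fold change 3.24, SE 0.21, adjusted p = 2.19e-05). Skil, the SnoN gene, itself a TGF-beta target that represses Smad complexes, had 1014, 929 and 1000 before and 2679, 3933 and 3615 after (1.78, SE 0.15, adjusted p = 6.8e-05). In both cases graft replicate 1 was the lowest graft. Every graft exceeded every library before grafting, but groups did not overlap for 97.6% of all tested genes either. The genes that match the pattern by name alone rose too. They were Tgfb1i1 (Hic-5), a focal adhesion adaptor induced by TGF-beta, from 420.5 ± 28.2 to 953.3 ± 129.6 (1.17, SE 0.13, adjusted p = 0.00034), and Bmp2k, a BMP-inducible kinase, from 910.5 ± 166.8 to 1600 ± 290 (0.82, SE 0.17, adjusted p = 0.0131). Without them 27 of 43 members rose and 11 fell.

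Other genes of the pathway came from 5 lists of 127 genes that are not members, of which 84 were listed in the table and tested. The lists were chosen with earlier results of these data known, so their shares are described without a test. Of these 52 rose (61.9%) and 23 fell (27.4%), the median log2 change being 1.02, against 41.3%, 39.2% and 0.28 over all tested genes. Among 21 tested genes of latent TGF-beta storage, activation and propeptide cleavage, 15 rose and 6 fell (median 1.14). Thbs1, the thrombospondin that can activate latent TGF-beta, went from 365.5 ± 45.4 to 38339 ± 24311 normalized counts (6.54, SE 0.37, adjusted p = 1.56e-05). On the log2 scale the fibrillin gene Fbn2 rose by 6.48, Emilin1 by 3.73, the proteoglycan gene Bgn by 3.43 and the proprotein convertase gene Pcsk5 by 3.41. Furin, Bmp1, Nrros and Lrrc32 are named after their values were seen. Bmp1, a procollagen and chordin protease that is no BMP, rose by 3.37 and Furin, which cleaves the ligand propeptides, by 1.98. All 3 listed genes of latent TGF-beta binding proteins fell, Ltbp4 from 4105 ± 447 to 804 ± 96 (-2.35, SE 0.12, adjusted p = 7.48e-06), Ltbp1 with a change of -1.53 and Ltbp3 with -1.19. Pcsk6, another convertase, fell (-3.70, SE 0.47, adjusted p = 0.00101). Nrros and Lrrc32, which tether latent TGF-beta to the surface of myeloid and other cells, rose by 1.32 and 1.14. With ribosomal protein genes fixed, Nrros kept its call and Lrrc32 lost it.

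Of 14 tested antagonists and co-receptors outside the pattern, 5 rose (35.7%) and 6 fell (42.9%), with a median of 0.37. These shares lay near the 41.3% and 39.2% of all tested genes. Tmem119, a BMP-linked membrane protein gene, rose by 2.84 on the log2 scale, Nrp2 by 1.89, the DAN-family antagonist gene Nbl1 by 1.85 and Vasn, whose product binds TGF-beta, by 1.52. Of these, Nbl1 lost its call with ribosomal protein genes fixed. Those that fell included the BMP co-receptor gene Rgma (-1.83), Sostdc1 (-1.31) and Nrp1 (-1.01). Of 15 tested intracellular regulators 7 rose (46.7%) and 4 fell (26.7%), with a median of 0.42. Ppp1r15a, which guides a phosphatase, had a log2 change of 2.35 and the ubiquitin ligase gene Wwp2 1.37. The kinase gene Hipk2 had -1.62 and the deubiquitinase gene Usp11 -1.22.

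Genes that TGF-beta or activin is known to induce were almost all higher. Of 25 tested 23 rose (92.0%, against 41.3% of all tested genes), 1 fell and 1 was not called, with a median log2 fold change of 3.85. Since the list was chosen with earlier results of these data known, this contrast is a description only. Timp1, a metalloproteinase inhibitor gene, went from 16.9 ± 2.0 to 8044 ± 1758 normalized counts (SD, n = 3), a log2 change of 8.79 (SE 0.18, adjusted p = 3.42e-07). On that scale Cthrc1, a gene of matrix-producing fibroblasts, rose by 7.14, the sphingosine kinase gene Sphk1 by 5.88 and Tgfbi by 3.24. The inhibitor of cell cycle kinases Cdkn2b fell (-0.82, adjusted p = 0.0336), and Pmepa1, which limits Smad activation, had -0.47 (adjusted p = 0.118), both named after their values were seen. Col1a1, Col3a1 and Postn of this list are also fibroblast markers and Acta2 a smooth muscle marker, and many of its genes respond to other signals. Thbs1 is also counted in the activation list above, and Pmepa1 among the intracellular regulators. Fibroblast markers, 9 of 11 of which rose, moved with this list, and their part in it was not tested.

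Of 11 tested genes known to be induced through BMP receptors, 3 rose (27.3%), 6 fell (54.5%) and 2 were not called. This list too was chosen with earlier results of these data known. Over all tested genes 41.3% rose and 39.2% fell, or 17.8% and 50.9% with ribosomal protein genes fixed. The list's shares are those of the deposited scaling. With ribosomal protein genes fixed its 6 lower genes kept their call, and Id1 and Id3 were called lower too. Of its 3 higher genes Runx2 kept its call there, while Id2 and Hes1 lost theirs. The list's median log2 fold change was -1.19. With the deposited scaling, the immediate targets did not move together. Id1 had 635 ± 169 and 394 ± 74 normalized counts (-0.67, SE 0.21, adjusted p = 0.0742) and was not called. Id3 had 1414 ± 306 and 1039 ± 132 (-0.43, SE 0.16, adjusted p = 0.162) and was not called either. Under the 4 other scalings Id1 passed as lower, and so did Id3 except after rescaling by median ratios. Id2 rose from 608 ± 90 to 1261 ± 282 (1.04, SE 0.19, adjusted p = 0.00558), but its call was lost with ribosomal protein genes fixed. Id4 fell from 113.5 ± 18.6 to 38.2 ± 1.8 (-1.54, SE 0.22, adjusted p = 0.00149). Among the other transcription factor genes, Runx2 rose by 1.71, and Gata3 (-2.64), Zfp423 (-1.36) and Gata2 (-1.25) fell, as did Tcim (-2.65). Gata3 is also a T cell gene and Zfp423 an adipocyte precursor gene, and the listed T cell and adipocyte markers all fell, whose part in these values was not tested.

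**Figure D5:**
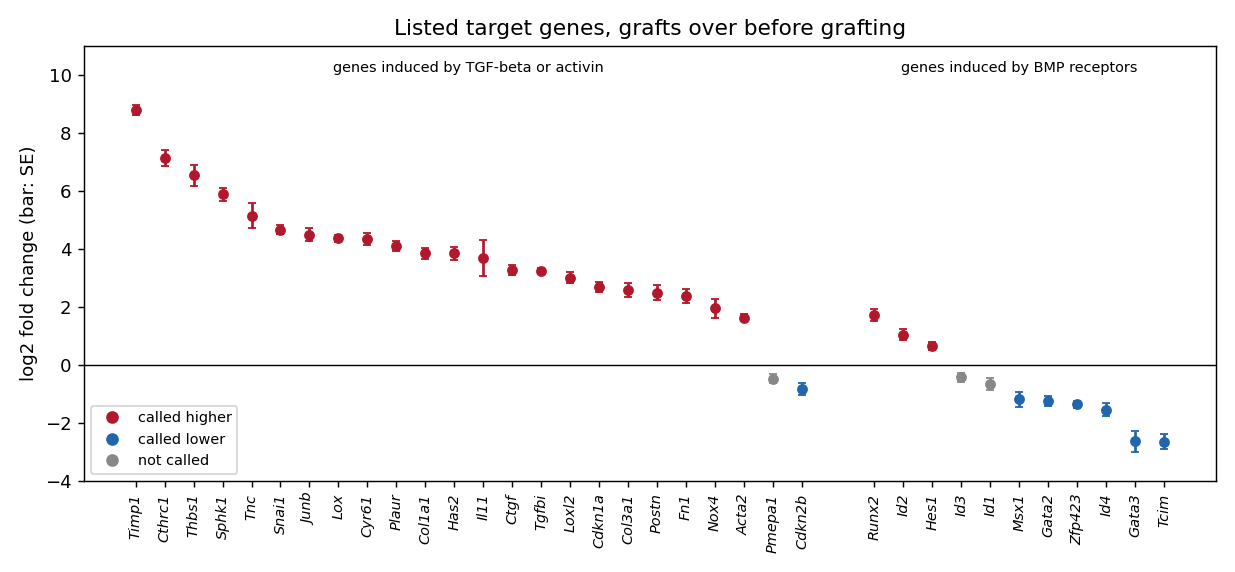
Log2 fold change of grafts over fat before grafting, with SE bars, for 24 of the 25 tested genes induced by TGF-beta or activin (left) and the 11 induced by BMP receptors (right). Of the left genes 22 were called higher and 1 lower, and of the right genes 3 were higher and 6 lower, and Hes1, called higher, changes sign with ribosomal protein genes at no change.

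Compared per kilobase, the order of the members' levels was different in grafts. Before grafting the highest after Fstl1 were Eng (865 ± 103), Tgfbr3 (709 ± 203) and Tgfbr2 (675 ± 23), of which Tgfbr3 overlapped with both others over libraries while Eng and Tgfbr2 did not overlap, followed by Chrdl1 (417 ± 91) and Smad4 (345 ± 7), which overlapped. In grafts Tgfbr2 (880 ± 96), Tgfb1 (655 ± 78) and Eng (635 ± 15) came next after Fstl1, the last of these within the range of Tgfb1 and both below Tgfbr2. Smad4 (512 ± 38), Inhba (480 ± 151), Acvr1b (474 ± 52) and Inhbb (466 ± 156) followed and could not be separated by their spread. Inhba, at 4.35 ± 1.06 per kilobase before grafting, thus stood among the lowest members before grafting and beside Acvr1b in grafts (SD, n = 3 for each).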

How the data were processed

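RNA of fat was sequenced from 3 libraries before grafting and 3 grafts at day 7. The deposited values are signal: per the file values, gene read counts that the authors divided by 1 size factor per library. Bowtie 0.12.2 and HISAT2 2.0.5 are named in the submitters' processing notes, while for the counter, strand setting and gene selection nothing is stated in the labels. Of the 12163 listed genes, 12029 lie within 1000 bases of their GENCODE M21 (GRCm38) positions. Values were taken as log2(value + 1), genes with at least 10 in 3 libraries were kept (10854), and groups were compared with limma 3.58.1 (R 4.3.3, trend and robust), first tested on simulated data. The p-values were adjusted by Benjamini-Hochberg over 55450 annotated genes, unlisted ones entered at 1, with a threshold of 0.05. Levels per kilobase used the deposited gene length.

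Members and lists were chosen with earlier results of these data known. Every member could be named. From each pathway list, up to 5 called genes in each direction with an absolute log2 fold change of at least 1 were named, plus Tgfbi, Id1, Id2 and Id3. A member and a listed target gene enter the counts but are not reported here. Alternatives covered pseudocount, filter, scaling, variance model, adjustment, a replicate block and leaving out each library.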

Additional observations from a re-analysis of the deposited data

How the results depend on the processing

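Holding the 79 ribosomal protein genes at no change moved the count of higher members from 29 to 16 and turned 8 signs, to -0.01 for Smad3, -0.05 for Bmp2, -0.15 for Tgfb3, -0.19 for Smad4, -0.22 for Acvrl1, -0.27 for Smad1, -0.38 for Tgfbr2 and -0.43 for Smurf1, and the cause was not tested. The other settings that were run gave 22 to 30 higher and 9 to 14 lower members. Leaving out 1 library gave 23 to 26 higher and 9 to 11 lower. Over all 10854 tested genes, leaving out 1 library gave 3752 to 4130 higher and 3326 to 4014 lower. With all libraries these were 4479 and 4251, and 1928 and 5524 with ribosomal protein genes fixed. Over all settings except a minimum of 50, which tested 40 members, 16 higher and 9 lower members kept their call. Calls kept over these settings were not counted for all genes. The deviations of same-numbered libraries from their group means had r = -0.157, -0.127 and 0.041, and those of differently numbered ones between -0.066 and 0.169. With 3 libraries per group, these values cannot show whether same-numbered libraries share an animal or a batch. The replicate block gave 25 higher and 11 lower members. With this block Grem1, Smad3, Smad1, Tgfbr2 and Eng missed the threshold. The planned tests with count models and the trimmed-mean scaling were not run, although all values were whole multiples of what 1 read is worth, because in graft replicates 1 and 3 this worth (1.00432 and 0.98919) lay too near 1 for the unit check used to accept recovered reads. Gdf5, Nog, Gdf3, Smad9 and Bmpr1b rest on few reads in 1 group, which limits their fold changes.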
